A study of Mus musculus with 5 samples.

Results

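The 30 genes described here encode the enzymes that make cholesterol and fatty acids, the proteins that switch those enzymes on and off, and 1 sterol carrier. They were chosen by symbol, and all 30 were present among the 27526 genes of the authors' normalized table. By role they were 7 genes of the mevalonate steps, 11 genes from squalene to cholesterol, 5 regulators, 6 genes of fatty acid synthesis and the sterol carrier Stard4. The RNA came from mouse leukaemia stem cells labelled Kit+, in a model driven by AML1-ETO9a, a truncated RUNX1-RUNX1T1 fusion protein that all groups carried. In 2 libraries the genotype was Plcg1 +/+ (wild-type 1 and wild-type 3), and in 3 it was Plcg1 -/- by conditional deletion (deleted 2, deleted 4 and deleted 6). Plcg1 encodes phospholipase C-γ1, which splits a membrane phospholipid into diacylglycerol and inositol trisphosphate. Age, the driver of the deletion and whether each library came from its own mouse are not stated by the labels. The p-values therefore measure the spread between these 5 libraries, which may be technical.

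Cholesterol and fatty acids are both built from cytosolic acetyl-CoA. In the mevalonate steps it becomes farnesyl diphosphate, 2 of these units are joined into squalene, and squalene is closed to lanosterol and trimmed to cholesterol in the endoplasmic reticulum. SREBP transcription factors raise the genes of both routes when membrane sterol is low, with SCAP as their escort and the INSIG proteins as the anchors that hold them back. Growing leukaemia cells and macrophages both use these routes, the former for membranes and the latter also for handling engulfed lipid.

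The libraries held 37306507 to 57133771 gene counts, and every one of the 30 genes had at least 335 counts in each library. Levels are in CPM, counts relative to library size after TMM scaling. Plcg1 itself gave 22.1 and 34.0 CPM in the wild-type pair and 53.0, 26.9 and 37.1 CPM in deleted 2, 4 and 6. Its counts are gene totals and cannot check a deletion of part of the gene, so the groups are named by their labels. Kit, the receptor in the cells' label, gave 26.8 and 32.1 CPM in the wild-type pair, 672 and 304 CPM for deleted 2 and 4, and 3.08 CPM for deleted 6. Deleted 6 stood apart: it came from another sequencing lane (lane 5, against lane 3 for wild-type 1 and lane 4 for the rest), and its Spearman correlation with the others across genes was 0.870 to 0.922. Xist was at 122 CPM there and at most 0.0526 CPM elsewhere, while Ddx3y, on the Y chromosome, gave 0.271 CPM there and 64.0 to 92.4 CPM elsewhere. All results are given with and without deleted 6. Scaled by total gene counts, without TMM factors, the median log2 ratio of deleted 6 to the wild-type mean over all 16120 genes tested was -0.55, against -0.05 with TMM, so levels in this library are relative to its other genes.

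A larger share of these genes than of all genes had a CCAAT box before the start. CCAAT is the binding sequence of NF-Y, a factor that works beside SREBP at sterol genes. RefSeq (GRCm38.p6) gave the 250 bases before the start for 24 of the 30 genes, and Fdps, Fdft1, Sqle, Scd1, Scd2 and Stard4 had no entry. CCAAT, read on both strands, occurred in 19 of 24 (79.2%), against 37.5% of 27025 genes and 39.9% of the 10678 genes that were also tested for expression. A gene with several listed starts was counted when any of them had the box. By window, CCAAT was in 62.5% of the 32 of these genes, 33.8% of those of all genes and 34.7% of those of the tested genes. It was in 14 of 15 sterol enzyme genes and in 1 of 4 fatty acid genes, 1 of which, Acaca, has its listed start 65766 bases inside the GENCODE gene. Among the 14, Dhcr7 counted only through a listed start 7069 bases inside its gene, as its outer listed starts had no match. The G+C-rich GGGCGG, a Sp1 box, was in 83.3% of the 24, 35.4% of all genes and 61.2% of the tested genes. The sterol element TCACNCCAC was in Hmgcs1 alone of the 24, against 1.22% of all genes and 1.29% of the tested genes. The E-box CACGTG was in 20.8% of the 24, 6.86% of all genes and 9.58% of the tested genes. These are letter matches in a fixed window and show neither binding nor its absence.

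The following 6 promoters show the range, each 5′ to 3′ on the gene's strand, with CCAAT (or ATTGG) and TCACNCCAC (or its complement) in capitals. Hmgcs1 (chr13:119690101-119690350, plus strand) is shown for carrying both boxes. Mvd (chr8:122443423-122443672, minus) and Insig2 (chr1:121332590-121332839, minus; the outermost of its 3 listed starts) belong to the genes highest in deleted 6. Pmvk (chr3:89454291-89454540, plus; the outer of its pair of listed starts) is among the genes that were lower in deleted libraries. Fasn (chr11:120824548-120824797, minus) and Acly (chr11:100528001-100528250, minus) are from fatty acid synthesis, the former with CCAAT matches 90, 62 and 59 bases before the start and the latter with none.
Hmgcs1: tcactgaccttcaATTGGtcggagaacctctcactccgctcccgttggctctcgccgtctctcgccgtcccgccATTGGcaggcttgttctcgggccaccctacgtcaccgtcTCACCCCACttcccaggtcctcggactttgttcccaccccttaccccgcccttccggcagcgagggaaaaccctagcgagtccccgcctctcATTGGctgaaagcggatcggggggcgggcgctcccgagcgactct
Mvd: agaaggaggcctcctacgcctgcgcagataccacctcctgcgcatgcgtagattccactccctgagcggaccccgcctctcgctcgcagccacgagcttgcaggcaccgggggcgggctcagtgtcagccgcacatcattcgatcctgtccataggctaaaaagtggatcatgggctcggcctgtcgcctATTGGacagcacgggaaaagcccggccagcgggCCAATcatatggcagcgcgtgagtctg
Insig2: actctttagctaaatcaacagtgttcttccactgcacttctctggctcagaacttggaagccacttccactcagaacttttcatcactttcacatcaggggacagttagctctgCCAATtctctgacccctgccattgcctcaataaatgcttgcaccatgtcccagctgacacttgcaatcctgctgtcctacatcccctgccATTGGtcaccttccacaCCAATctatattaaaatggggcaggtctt
Pmvk: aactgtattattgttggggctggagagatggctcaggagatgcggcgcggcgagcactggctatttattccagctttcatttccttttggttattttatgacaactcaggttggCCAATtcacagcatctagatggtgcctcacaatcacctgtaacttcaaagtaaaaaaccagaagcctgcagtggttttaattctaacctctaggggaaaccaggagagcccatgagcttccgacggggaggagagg
Fasn: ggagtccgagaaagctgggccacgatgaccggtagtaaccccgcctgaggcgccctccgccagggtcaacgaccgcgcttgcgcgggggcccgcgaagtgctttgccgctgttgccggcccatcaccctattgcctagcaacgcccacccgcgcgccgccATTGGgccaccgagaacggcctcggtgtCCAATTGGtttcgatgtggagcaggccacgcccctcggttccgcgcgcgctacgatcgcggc
Acly: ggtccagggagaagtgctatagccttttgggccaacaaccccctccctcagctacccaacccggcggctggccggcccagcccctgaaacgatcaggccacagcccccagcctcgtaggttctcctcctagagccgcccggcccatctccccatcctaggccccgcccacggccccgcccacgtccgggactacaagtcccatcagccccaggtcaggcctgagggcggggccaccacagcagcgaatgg
Hmgcs1 has 3 CCAAT matches, as do Fasn and the Insig2 start shown, and 2 of the matches in Fasn overlap each other on opposite strands. The other listed starts of Insig2 and Pmvk have no CCAAT match.

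Per kilobase of exon, the wild-type levels of the 30 genes spanned from 165 CPM per kb for Acly, the ATP citrate lyase that supplies acetyl-CoA to both routes, to 1.72 CPM per kb for Acaca, an acetyl-CoA carboxylase. Scd2, the second highest, was at 132 and 166 CPM per kb in wild-type 1 and 3, and Acly at 149 and 182 CPM per kb, so that the ranges of this pair of genes overlapped although Acly was higher in each library. Cyp51 and Sqle came next at 73.5 and 63.1 CPM per kb on average. Hmgcs1, Mvd and Fasn, at means of 55.9, 54.7 and 53.7 CPM per kb, did not differ beyond the spread of both libraries. At the low end, Idi1 and Scd1 were at 2.81 and 2.71 CPM per kb, with overlapping values.

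**Figure D1:**
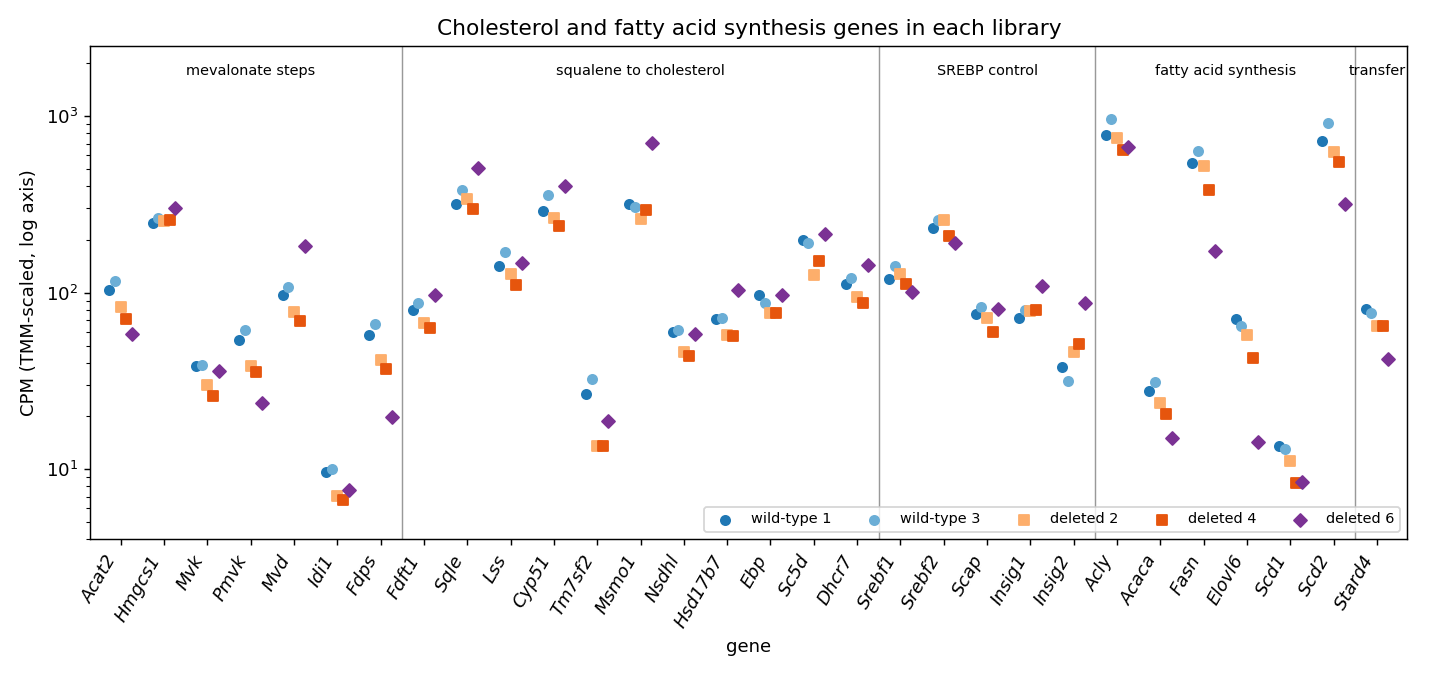
CPM of each of the 30 genes (log axis) in the 2 wild-type libraries (blue circles), deleted 2 and 4 (orange squares) and deleted 6 (purple diamonds), by role. Deleted 2 and 4 lie just under both wild-type libraries for most genes, while deleted 6 lies above all other libraries for Msmo1, at 707 CPM, and below all others for Elovl6, at 14.2 CPM.

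Most of the 30 genes were somewhat lower in deleted 2 and 4 than in either wild-type library, and deleted 6 divided them. With TMM scaling, 7 of its 11 genes from squalene to cholesterol were above both wild-type libraries (43.3% of all genes). By total gene counts, however, 2 of the 11 were above (28% of all genes) and 8 below (62% of all genes). Its 6 fatty acid genes were below under both scalings (45.8% of all genes with TMM, 62% by total gene counts). The comparison asks how this pathway differs between leukaemia stem cells labelled Plcg1 -/- and Plcg1 +/+. With all 5 libraries, no gene passed edgeR's quasi-likelihood test at an adjusted p under 0.05 (0% of the 16120 tested in either direction). At an unadjusted p under 0.05, 4 of the 30 were lower (Acat2, Fdps, Pmvk and Tm7sf2; 5.42% of all genes) and 0 were higher (9.44% of all genes). DESeq2 called 1 of the 30 lower, Tm7sf2 (3.05% of all genes), and limma-voom with library weights called 6 lower (Acat2, Fdps, Mvk, Nsdhl, Pmvk and Tm7sf2; 5.87% of all genes), with 0 higher by either tool (5.75% and 7.63% of all genes). The lower calls by limma-voom and at an unadjusted p were a larger share of the 30 than of all genes, the DESeq2 call a similar one. The fold changes of Hsd17b7, Msmo1, Mvd and Sqle were negative in limma-voom and in edgeR without deleted 6, but positive in edgeR with all 5 libraries. The library weights were not examined, so the limma-voom calls may not be separate from those without deleted 6.

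All 3 deleted libraries lay below both wild-type libraries for 14 of the 30 genes (23.7% of all genes) and above both for 1, Insig2 (22.4% of all genes). Without deleted 6, 24 lay below (29% of all genes) and again Insig2 alone lay above (29.6% of all genes). In that fit of 15787 genes, 16 were lower at an unadjusted p under 0.05 (12.6% of all genes) and 1 was higher, Insig2 (16% of all genes). After adjustment 3 of the 30 passed, all lower: Tm7sf2, Fdps and Pmvk (5.07% of all genes), and 0 were higher (7.89% of all genes). In simulated counts this fit made more false calls than its threshold implies, which bears on every call without deleted 6 given here. The median log2 fold change of the 30, deleted minus wild-type, was -0.26 with all 5 libraries, where the median of all genes tested was 0.01, and -0.36 without deleted 6. The 3 calls are 10% of the set, and the separation of groups is far more frequent than the calls. Within lane 4, which held wild-type 3 and deleted 2 and 4, 0 of the 30 passed edgeR's test (0.779% of all genes lower, 1.26% higher), 10 were lower at an unadjusted p under 0.05 (9.32% of all genes), and 27 lay below wild-type 3 in both deleted libraries (39.3% of all genes).

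**Figure D2:**
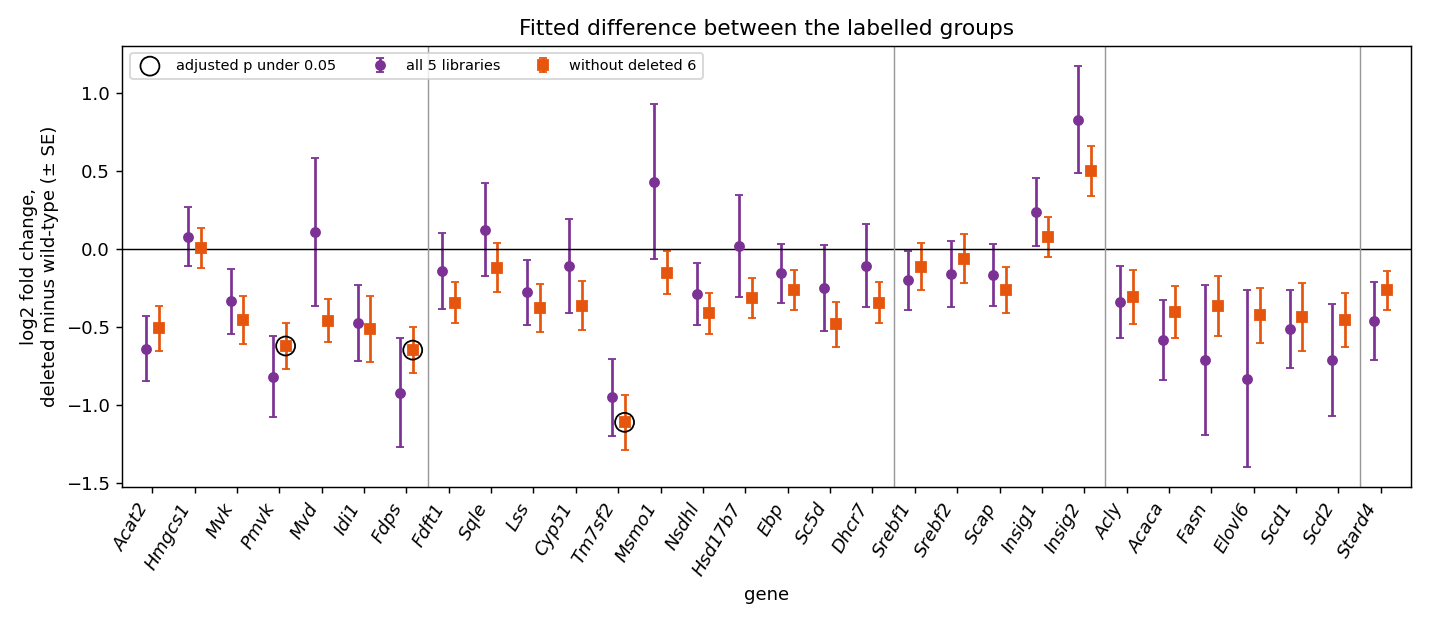
Log2 fold change of each gene, deleted minus wild-type, with its standard error, from all 5 libraries (purple circles) and without deleted 6 (orange squares). Rings mark an adjusted p under 0.05 in the latter fit, reached by Pmvk, Fdps and Tm7sf2, and with deleted 6 included the bars of Elovl6, Msmo1, Fasn and Mvd are the 4 widest.

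Among the 7 genes of the mevalonate steps, Fdps and Pmvk fell without deleted 6 and were lowest of all in deleted 6. Pmvk (ENSMUSG00000027952.15; GRCm38 chr3:89454541-89469013, plus strand) encodes phosphomevalonate kinase, the second of the pathway's kinases. It stood at 53.8 and 61.6 CPM in the wild-type pair and at 38.6, 35.8 and 23.8 CPM in deleted 2, 4 and 6. All deleted libraries were below both wild-type libraries, and deleted 6 was lowest. The means were 57.7 ± 5.51 (SD, n = 2) and 32.7 ± 7.84 CPM (SD, n = 3), with a log2 fold change of -0.82 ± 0.26 (SE), at an adjusted p of 0.286 in edgeR's test. Without deleted 6 it fell by 0.62 ± 0.15 on the log2 scale (edgeR, adjusted p = 0.0388).

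Fdps (ENSMUSG00000059743.11; GRCm38 chr3:89093588-89101959, minus strand) encodes farnesyl diphosphate synthase, whose product also serves protein prenylation. It stood at 57.7 and 66.4 CPM in the wild-type pair and at 41.3, 37.2 and 19.9 CPM in deleted 2, 4 and 6. The groups did not overlap, and deleted 6 was again lowest, 3.12-fold below the wild-type mean. With all 5 libraries the log2 fold change was -0.92 ± 0.35 (SE), at an adjusted p of 0.323 in edgeR's test. Without deleted 6 it fell by 0.65 ± 0.15 (edgeR, adjusted p = 0.0358). Of the 50-base windows of its transcripts, 26.2% also occur in other genes, among them Gm43738, so its count is uncertain.

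Acat2, the thiolase of the first step, gave 104 and 117 CPM in the wild-type pair and 82.5, 71.4 and 58.7 CPM in deleted 2, 4 and 6, without overlap. The fitted log2 fold change was -0.64 ± 0.21 (SE), at an adjusted p of 0.286 in edgeR's test with all 5 libraries, and -0.51 ± 0.14 (adjusted p = 0.0666) without deleted 6. Acat2 shares 39.1% of its windows with other genes, Acat3 first among them, and is uncertain too. Mvk, the first kinase, stood at 38.6 and 38.8 CPM in the wild-type pair and at 30.1, 25.8 and 36.1 CPM in the deleted libraries. Idi1, the isomerase of the 5-carbon units, gave 9.67 and 10.1 CPM in the wild-type pair and 7.03, 6.66 and 7.58 CPM in the deleted libraries. Idi1 shares 25.3% and Hmgcs1 11.6% of their windows with other genes. The groups overlapped for neither Mvk nor Idi1, and neither gene passed edgeR's test with or without deleted 6.

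Mvd and Hmgcs1 were the members of these steps that stood highest in deleted 6. Mvd, the decarboxylase, gave 96.5 and 107 CPM in the wild-type pair, 77.7 and 69.1 CPM for deleted 2 and 4, and 183 CPM for deleted 6. The direction of its difference depended on deleted 6: the log2 fold change was 0.11 ± 0.48 (SE) with it and -0.46 ± 0.14 without (edgeR, adjusted p = 0.911 and 0.0778). Hmgcs1, the HMG-CoA synthase, gave 249 and 265 CPM in the wild-type pair, 254 and 258 CPM for deleted 2 and 4, and 302 CPM for deleted 6. In deleted 2 and 4 it lay between the wild-type libraries, the only one of the 7 to do so.

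Among the 11 genes from squalene to cholesterol, Tm7sf2 was the single edgeR call without deleted 6, and Msmo1 had the highest ratio of deleted 6 to wild-type. Tm7sf2 (ENSMUSG00000024799.13; GRCm38 chr19:6062821-6068373, minus strand) encodes a sterol reductase that acts after lanosterol. It stood at 26.6 and 32.2 CPM in the wild-type pair and at 13.5, 13.5 and 18.7 CPM in deleted 2, 4 and 6. All deleted libraries were below both wild-type libraries, and deleted 2 and 4 averaged 54.1% below the wild-type mean. With all 5 libraries the means were 29.4 ± 3.99 (SD, n = 2) and 15.2 ± 3.001 CPM (SD, n = 3), with a log2 fold change of -0.95 ± 0.25 (SE), at an adjusted p of 0.230 in edgeR's test. Without deleted 6 it fell by 1.11 ± 0.18 (edgeR, adjusted p = 0.0113). It overlaps Vps51 on the same strand, and 9.87% of its windows occur in other genes.

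Msmo1 (ENSMUSG00000031604.9; GRCm38 chr8:64718139-64733792, minus strand) encodes a methylsterol monooxygenase that acts in methyl removal after lanosterol. It gave 318 and 306 CPM in the wild-type pair, 263 and 295 CPM for deleted 2 and 4, and 707 CPM for deleted 6. Deleted 6 was thus 2.26-fold above the wild-type mean while deleted 2 and 4 were below both wild-type libraries. The log2 fold change was 0.43 ± 0.50 (SE) with deleted 6 and -0.15 ± 0.14 without it (edgeR, adjusted p = 0.664 and 0.543). Sqle, the epoxidase that precedes ring closure, gave 318 and 381 CPM in the wild-type pair, 340 and 299 CPM for deleted 2 and 4, and 506 CPM for deleted 6. Its deleted 2 and 4 values overlapped wild-type.

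In 7 genes deleted 2 and 4 lay below both wild-type libraries while deleted 6 lay above both, a pattern held by 3.98% of all genes with TMM scaling: Mvd from the mevalonate steps, and Cyp51, Dhcr7, Fdft1, Hsd17b7, Msmo1 and Sc5d from squalene onward. By total gene counts 3 of the 30 held it, Hsd17b7, Msmo1 and Mvd (1.98% of all genes). Hsd17b7, a ketosteroid reductase of methyl removal, gave 71.2 and 71.4 CPM in the wild-type pair, 57.2 and 56.5 CPM for deleted 2 and 4, and 103 CPM for deleted 6. Cyp51, the lanosterol demethylase, gave 292 and 358 CPM in the wild-type pair, 263 and 238 CPM for deleted 2 and 4, and 402 CPM for deleted 6. Dhcr7, the reductase of the last step, gave 112 and 121 CPM in the wild-type pair, 95.1 and 86.9 CPM for deleted 2 and 4, and 143 CPM for deleted 6. In each of these the wild-type pair lay between the 2 kinds of deleted library. Sc5d, a sterol desaturase, gave 200 and 191 CPM in the wild-type pair, 127 and 151 CPM for deleted 2 and 4, and 216 CPM for deleted 6. Fdft1, the squalene synthase, gave 80.0 and 87.3 CPM in the wild-type pair, 67.5 and 63.3 CPM for deleted 2 and 4, and 97.1 CPM for deleted 6. Fdft1 overlaps the cathepsin gene Ctsb on the opposite strand and shares 26.5% of its windows with other genes, and the kit does not mark strand, so its level is uncertain.

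The other 3 enzymes of this stretch, Lss, Nsdhl and Ebp, were lower in deleted 2 and 4 and near wild-type in deleted 6. Lss, which closes squalene to lanosterol, gave 142 and 170 CPM in the wild-type pair, 128 and 110 CPM for deleted 2 and 4, and 148 CPM for deleted 6. Nsdhl, a dehydrogenase of methyl removal, gave 59.8 and 61.3 CPM in the wild-type pair, 46.2 and 44.0 CPM for deleted 2 and 4, and 58.7 CPM for deleted 6. Ebp, a sterol isomerase, gave 97.4 and 87.8 CPM in the wild-type pair, 76.6 and 76.5 CPM for deleted 2 and 4, and 96.5 CPM for deleted 6. None of the 3 passed edgeR's test, with adjusted p-values of 0.504 to 0.684 with all 5 libraries and 0.0923 to 0.246 without deleted 6.

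As a whole, the 11 genes from squalene to cholesterol had median log2 ratios to the wild-type mean of -0.30, -0.40 and 0.22 in deleted 2, 4 and 6, and the 7 of the mevalonate steps -0.42, -0.58 and -0.38. Deleted 6 lay above both wild-type libraries in 7 of the 11 and in 2 of the 7. Over all 30 genes it did so in 11 (43.3% of all genes) and lay below both in 16 (45.8% of all genes), shares near the background. Scaled by total gene counts, deleted 6 lay above both wild-type libraries in 4 of the 30 (Hsd17b7, Insig2, Msmo1 and Mvd; 28% of all genes) and below both in 24 (62% of all genes). In the 11 genes from squalene to cholesterol it then lay above both in 2 and below both in 8, with a median log2 ratio of -0.28 over the 11, where that of all genes was -0.55. Rescaling shifts all genes of a library alike, so it could hardly change the order of the roles within deleted 6. These values are from 1 library, with no test.

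**Figure D3:**
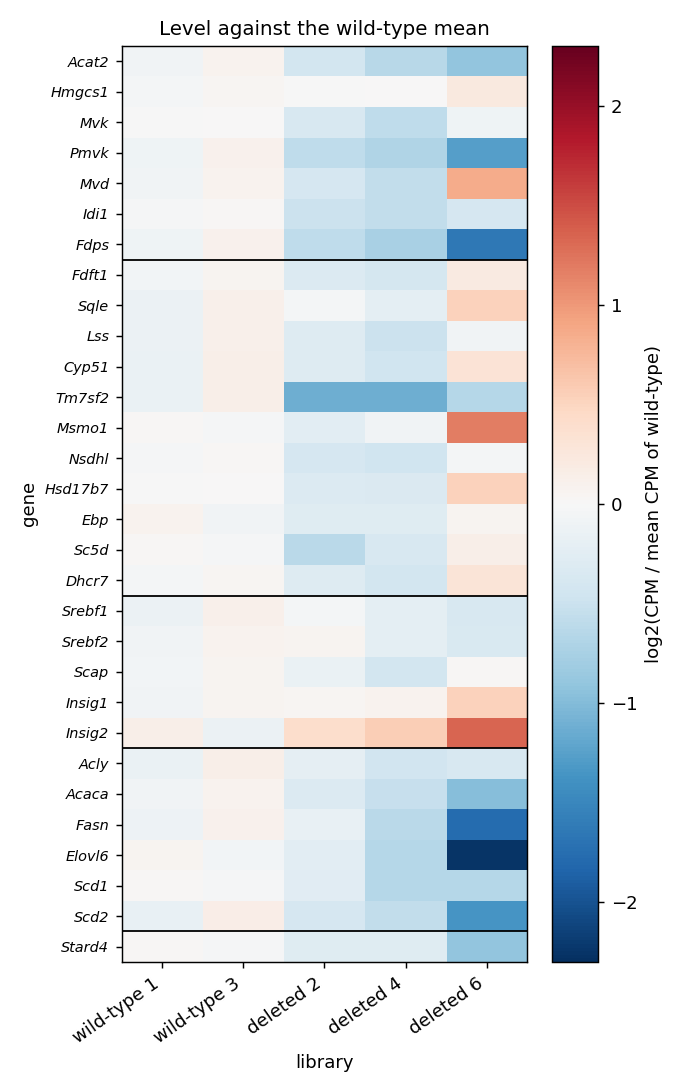
Log2 ratio of each library's CPM to the wild-type mean (color scale from blue, lower, to red, higher) for the 30 genes, with lines between roles. Deleted 2 and 4 are pale blue in most rows, and deleted 6 is red for Msmo1, Mvd and Insig2 (1.18, 0.85 and 1.34) and dark blue for Elovl6, Fasn and Fdps (-2.25, -1.77 and -1.64).

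The regulators differed less, apart from Insig2. Insig2 (ENSMUSG00000003721.13; GRCm38 chr1:121304353-121332589, minus strand) encodes an anchor that keeps SCAP and SREBP in the endoplasmic reticulum. It stood at 37.9 and 31.5 CPM in the wild-type pair and at 46.0, 51.3 and 87.7 CPM in deleted 2, 4 and 6. Every deleted library was above both wild-type libraries, and deleted 6 was 2.53-fold above their mean. The log2 fold change was 0.83 ± 0.34 (SE), at an adjusted p of 0.348 in edgeR's test with all 5 libraries, and 0.50 ± 0.16 (adjusted p = 0.0931) without deleted 6, so it did not pass in either fit.

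Insig1, the other anchor and itself a target of SREBP, gave 72.1 and 79.5 CPM in the wild-type pair, 78.5 and 80.1 CPM for deleted 2 and 4, and 109 CPM for deleted 6. Srebf1, whose factor acts mainly on fatty acid genes, gave 119 and 142 CPM in the wild-type pair and 127, 112 and 101 CPM in deleted 2, 4 and 6. Srebf2, whose factor acts mainly on sterol genes, gave 232 and 257 CPM in the wild-type pair and 257, 208 and 191 CPM in deleted 2, 4 and 6. For Insig1 and both factors, deleted 2 or deleted 4 overlapped wild-type. Scap, the escort, gave 75.8 and 83.2 CPM in the wild-type pair, 71.9 and 59.5 CPM for deleted 2 and 4, and 81.3 CPM for deleted 6. The median log2 ratios of the 5 regulators were 0.05, -0.22 and 0.03 in deleted 2, 4 and 6. Transcript levels of Srebf1 and Srebf2 do not report how much of the factor is cleaved and active.

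All 6 genes of fatty acid synthesis were below both wild-type libraries in every deleted library (23.7% of all genes), and deleted 6 was lowest of the 5 libraries in 4 of them (37.9% of all genes). None passed edgeR's test, with adjusted p-values of 0.363 to 0.504 across all 5 libraries and 0.143 to 0.306 without deleted 6. Elovl6, which lengthens palmitate, gave 70.8 and 64.8 CPM in the wild-type pair and 57.4, 42.8 and 14.2 CPM in deleted 2, 4 and 6. Fasn (ENSMUSG00000025153.8; GRCm38 chr11:120805846-120824547, minus strand), the fatty acid synthase, gave 544 and 631 CPM in the wild-type pair and 523, 383 and 172 CPM in deleted 2, 4 and 6. In deleted 6, Elovl6 was 4.77-fold and Fasn 3.41-fold below the wild-type mean.

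Scd2, a desaturase that makes monounsaturated fatty acids, gave 722 and 909 CPM in the wild-type pair and 626, 553 and 317 CPM in deleted 2, 4 and 6. Its relative Scd1 was far lower, with 13.5 and 13.02 CPM in the wild-type pair and 11.1, 8.38 and 8.46 CPM in the deleted libraries. Acaca, which makes malonyl-CoA, gave 27.8 and 31.04 CPM in the wild-type pair and 23.7, 20.4 and 15.0 CPM in deleted 2, 4 and 6. The order for Acaca and Scd2 was the same, with deleted 6 lowest. Acaca had the smallest unadjusted p of the 6, with a log2 fold change of -0.58 ± 0.26 (SE), at an adjusted p of 0.363 in edgeR's test, and -0.41 ± 0.17 without deleted 6 (adjusted p = 0.170). Of its windows, 30.4% also occur in other genes, mostly Gm5182. Acly gave 785 and 959 CPM in the wild-type pair and 752, 644 and 672 CPM in deleted 2, 4 and 6. The median log2 ratio of the 6 genes was -0.25, -0.59 and -1.17 in deleted 2, 4 and 6, and by total gene counts it was -1.66 in deleted 6, where that of all genes was -0.55.

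Summed by role, the genes from squalene to cholesterol and the fatty acid genes differed within deleted 6. The 11 genes from squalene to cholesterol summed to 1717 and 1867 CPM in the wild-type pair, 1477 and 1433 CPM for deleted 2 and 4, and 2495 CPM for deleted 6. The 6 fatty acid genes summed to 2163 and 2608 CPM in the wild-type pair, 1993 and 1652 CPM for deleted 2 and 4, and 1198 CPM for deleted 6. Of the 2495 CPM, Msmo1 alone gave 707 CPM. Fatty acid genes thus exceeded these 11 genes in 4 libraries and were below them in deleted 6. The order of sums within a library does not depend on scaling, but the height of deleted 6 against the other libraries does. By total gene counts, the median log2 ratio of the 11 genes to the wild-type mean was -0.28 in deleted 6, not above wild-type. With the 7 genes of the mevalonate steps added, the 18 sterol enzyme genes summed to 2326 and 2533 CPM in the wild-type pair. That sum was 2008 and 1937 CPM for deleted 2 and 4, and 3126 CPM for deleted 6. The fatty acid genes exceeded it in wild-type 3 alone.

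Stard4, which carries cholesterol between membranes, gave 80.8 and 76.9 CPM in the wild-type pair and 65.1, 65.1 and 41.9 CPM in deleted 2, 4 and 6. All deleted libraries were below both wild-type libraries. The log2 fold change was -0.46 ± 0.25 (SE), at an adjusted p of 0.429 in edgeR's test with all 5 libraries, and -0.26 ± 0.13 (adjusted p = 0.228) without deleted 6. Among 9 other genes of the START domain family, edgeR called 0 in either fit. Without deleted 6, 1 of the 9 was higher and 0 were lower at an unadjusted p under 0.05 (16% and 12.6% of all genes).

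Further genes of lipid synthesis gave few calls, in both directions. Of 18 further sterol synthesis and SREBP pathway genes, edgeR called 0 with or without deleted 6. Without it, an unadjusted p under 0.05 was reached by 2 in the higher and 3 in the lower direction (16% and 12.6% of all genes). Of 29 further fatty acid and lipid synthesis genes tested, 2 rose and 1 fell without deleted 6, shares no larger than among all genes (7.89% and 5.07%). At an unadjusted p under 0.05, 7 of the 29 were higher and 6 lower (16% and 12.6% of all genes). In that fit the median log2 fold change was -0.001 for the 18 and -0.087 for the 29, against -0.36 for the 30. Deleted 2 and 4 lay above both wild-type libraries in 6 of the 18 and 10 of the 29 (29.6% of all genes). They lay below both in 4 and 9 (29% of all genes). As sets, these further lists thus did not show the lower levels of the 30, although single genes in them were lower. Lpin2, a phosphatidate phosphatase, rose by 0.62 on the log2 scale (edgeR, adjusted p = 0.0327), and Dgat2, an acyltransferase of triglyceride synthesis, rose by 0.74 (adjusted p = 0.0258). Dgat1, the other such acyltransferase, fell by 0.89 (adjusted p = 0.0310). With all 5 libraries none of these passed, and Dgat2 stood at 102 and 128 CPM in the wild-type pair, 187 and 194 CPM for deleted 2 and 4, and 4.05 CPM for deleted 6.

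Among genes of sterol export, storage and uptake, all calls were in the higher direction. Without deleted 6, 4 of 20 rose and 0 fell in edgeR's test (7.89% and 5.07% of all genes), where an unadjusted p under 0.05 was reached by 9 in the higher and 2 in the lower direction (16% and 12.6% of all genes), and with all 5 libraries 0 passed. Cd36, a scavenger receptor for lipids, stood at 61.0 and 132 CPM in the wild-type pair and at 413, 474 and 1597 CPM in deleted 2, 4 and 6. Ch25h, which makes a hydroxysterol that restrains SREBP, stood at 2.10 and 3.24 CPM in the wild-type pair and at 10.004, 11.2 and 39.2 CPM in the deleted libraries. Npc1, which exports cholesterol from lysosomes, stood at 45.3 and 48.4 CPM in the wild-type pair and at 77.7, 117 and 221 CPM in the deleted libraries. All deleted libraries were above both wild-type libraries for these 3 genes, and deleted 6 was highest of the 5 libraries in 15 of the 20 (36.2% of all genes).

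**Figure D4:**
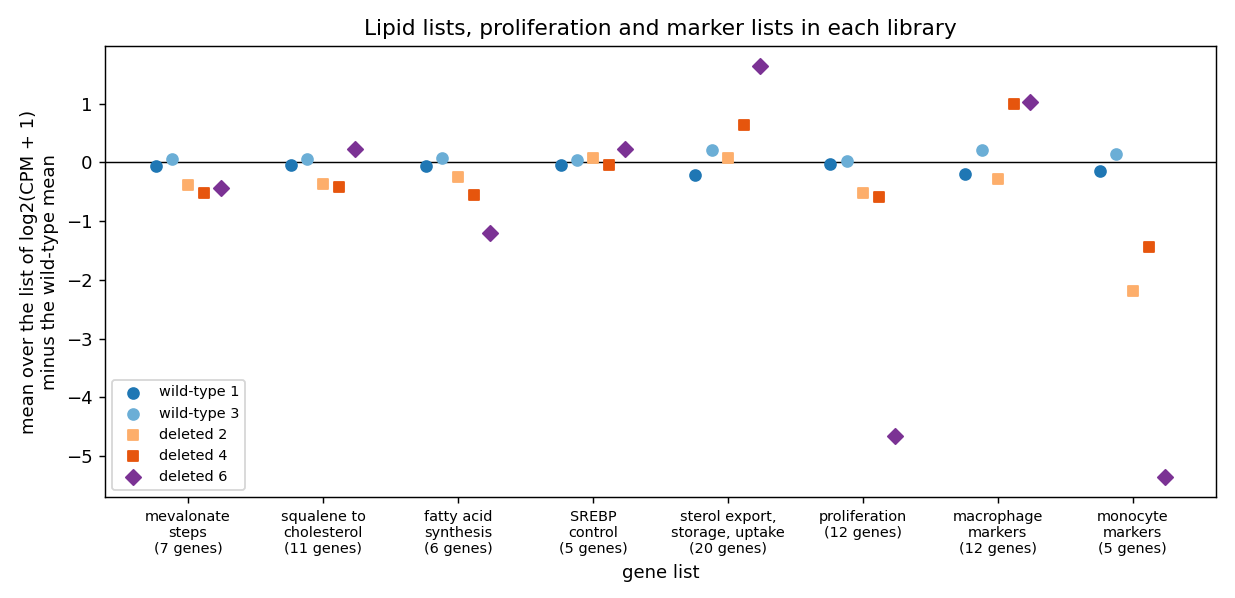
Mean over each gene list of log2(CPM + 1) minus the wild-type mean, per library. In deleted 6 the squalene-to-cholesterol list lies at 0.23, fatty acid synthesis at -1.20, sterol export, storage and uptake at 1.63 and proliferation at -4.65.

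Cell type and proliferation markers also differed between libraries, not always by genotype label. The 12 proliferation genes summed to 3314 and 3654 CPM in the wild-type pair, 2402 and 2195 CPM for deleted 2 and 4, and 155 CPM for deleted 6, where all 12 were lowest. The 12 macrophage markers summed to 18773 and 18730 CPM in the wild-type pair, 23092 and 41894 CPM for deleted 2 and 4, and 139440 CPM for deleted 6. That sum is mostly Lyz2, Ctsd and Gpnmb: the list's mean log2(CPM + 1) differed from wild-type by -0.29, 0.99 and 1.03 in deleted 2, 4 and 6, and Fcgr1 gave 26.8 and 32.8 CPM in the wild-type pair against 3.36, 16.8 and 4.03 CPM in the deleted ones. The 8 mast cell markers summed to 40.5 and 82.2 CPM in the wild-type pair, 10358 and 4698 CPM for deleted 2 and 4, and 32.3 CPM for deleted 6. Deleted 2 and 4 thus carried mast cell transcripts that the other 3 libraries nearly lacked. The 6 stem and progenitor markers, Kit among them, summed to 299 and 319 CPM in the wild-type pair, 1123 and 562 CPM for deleted 2 and 4, and 7.03 CPM for deleted 6. The members of that list went both ways in deleted 2 and 4: Kit, Cd34 and Gata2 were above wild-type, whereas Hoxa9 gave 145 and 128 CPM in the wild-type pair and 0.841 and 1.66 CPM in deleted 2 and 4, and Meis1 79.1 and 84.5 against 8.65 and 6.80 CPM. The 9 neutrophil granule genes summed to 18272 and 20100 CPM in the wild-type pair. The sum was 14133 and 15842 CPM for deleted 2 and 4, and 113 CPM for deleted 6. Their mean log2(CPM + 1) differed from wild-type by -0.90, -0.66 and -7.70 in deleted 2, 4 and 6. The 5 monocyte markers summed to 2036 and 2484 CPM in the wild-type pair and to 568, 814 and 159 CPM in deleted 2, 4 and 6. No gene of the macrophage, monocyte, neutrophil and mast cell lists was under 1 CPM in every library. By contrast, all 5 adipocyte and hepatocyte markers were under 1 CPM in every library. The part of these cell types and of proliferation in the levels of the 30 genes was not tested, and in bulk RNA fewer cells of a type and less RNA per cell cannot be told apart.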

How the data were processed

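RNA was converted to cDNA by the SMART-Seq v4 low-input chemistry and made into Nextera XT libraries, read as single-end 50-base reads, per the labels' protocols and the design text. Neither kit marks strand. The submitters' processing notes name mm10, STAR, bcl2fastq 1.8.4 and DESeq2 1.12.4, and the sources used here state neither annotation nor counting settings. For each library the authors deposited raw read counts of 46603 genes, and 5 rows that name no gene were left out: reads with no feature were 5.89% to 8.09%, ambiguous reads 2.36% to 2.78% and multiply aligned reads 12.97% to 15.1% of a library's reads. The authors also deposited a normalized signal, equal to the counts over 1 size factor per library, and a log2 transformed table, which served only to check the columns and to find the 30 genes.

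Groups came from the genotype labels. Counts were filtered with filterByExpr (16120 genes), scaled by TMM and compared by edgeR's quasi-likelihood test (edgeR 4.0.16, R 4.3.3) on all genes, with Benjamini-Hochberg adjustment, a threshold of 0.05 and 3 residual degrees of freedom. The SE is the log2 fold change over the square root of F. Every pair of libraries differed beyond counting noise. Alternatives were RLE factors, DESeq2 1.42.0, limma-voom 3.58.1 with quality weights, no filter, a filter of 10 CPM in 2 libraries, robust dispersions, each library left out, and lane 4 alone. Scaling by total counts was added after seeing the data. The fits were tested on simulated counts, where the fit without deleted 6 made more false calls than the threshold implies. With 2 and 3 libraries the smallest two-sided exact p is 0.1, so none was used.

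The 30 genes and the lists were chosen with earlier results of these data known. All 30 are accounted for, with full statistics for those called with or without deleted 6 and for the smallest unadjusted p in each role. From the other lipid lists up to 3 genes each way called without deleted 6 were named by size. Other genes given with statistics, and Xist and Ddx3y, were chosen after their values were seen. Coordinates and exon lengths are from GENCODE M21 (GRCm38, the build of mm10), and promoters from RefSeq.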

Additional observations from a re-analysis of the deposited data

How the results depend on the processing

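With 2 and 3 libraries per group and 1 that stands apart, the spread among deleted libraries limits these results more than depth, since every gene had at least 335 counts per library. No paired analysis was possible because the groups share no replicate numbers (1 and 3 against 2, 4 and 6). RLE factors, no filter, the 10 CPM filter and robust dispersions kept the direction and side of the threshold of all 30 genes. Genes called lower numbered 1 with DESeq2 and 6 with limma-voom, against 0 in edgeR, and 0 to 3 when single libraries were left out; the 3 came without deleted 6, and none was called higher under any alternative. Genes with all deleted libraries below wild-type numbered 27 in lane 4 alone and 22 by total counts, against 14. With single libraries left out they numbered 14 to 24, where 24 was without deleted 6. The background moved too: 39.3% of all genes had this order in lane 4 alone and 29% without deleted 6, against 23.7%. No such share is given by total counts, where deleted 6 alone was under the wild-type pair for 62% of all genes, against 45.8% with TMM. Part of these rises was thus shared by all genes. Genes with all deleted libraries above wild-type numbered 1 to 3 with single libraries left out, 3 without wild-type 3 and 2 without deleted 2, against 1. Of all genes, 22.4% had that order with all 5 libraries and 29.6% without deleted 6. Its share is not given without wild-type 3 or without deleted 2. The median log2 fold change was -0.50 by total counts and -0.36 to -0.19 with single libraries left out.

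In 23 of the 30 genes the sign held under every alternative, and in 7 it turned in some. In lane 4 alone the log2 fold change was -0.039 for Hmgcs1, -0.53 for Mvd, -0.24 for Sqle, -0.12 for Msmo1 and -0.32 for Hsd17b7. With limma-voom it was -0.49 for Mvd, -0.16 for Sqle, -0.082 for Msmo1 and -0.31 for Hsd17b7. By total counts it was -0.14 for Hmgcs1, -0.18 for Mvd, -0.12 for Sqle and -0.24 for Hsd17b7. With single libraries left out it ran from -0.46 to 0.36 for Mvd, -0.12 to 0.28 for Sqle, -0.36 to 0.047 for Cyp51, -0.15 to 0.68 for Msmo1, -0.31 to 0.17 for Hsd17b7 and -0.34 to 0.033 for Dhcr7. The lowest value of each of these 6 ranges was without deleted 6. None of these 7 genes passed the test in any of these fits. Beyond the choice of libraries and scaling, the cause was not tested.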
